A study of Mus musculus with 2 samples.

Results

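Satb1, Cux1, Cux2, Mef2a, Mef2c, Mef2d, Rorb, Lmo4 and Unc5d, a set of 9 genes tied to the neurons of the upper cortical layers, were followed in the forebrain of mouse embryos at embryonic day 14.5 (E14.5). They were taken by gene name from the 43346 Ensembl genes of each table, together with their transcripts, and all 9 were found. Upper-layer neurons connect the cortex with itself, within a hemisphere and across the corpus callosum, and most of them are born after the neurons of the deep layers. Several of these genes are also active in other forebrain neurons, such as Satb1 and Mef2c in interneurons born in the ventral telencephalon. Cux1, Cux2 and Satb1 encode homeodomain proteins with CUT-type DNA-binding repeats, the Mef2 genes encode MADS-box factors that couple neuronal activity to transcription, Rorb encodes an orphan nuclear receptor, Lmo4 a LIM-only adaptor that binds no DNA itself, and Unc5d a netrin-family guidance receptor.

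The samples formed 1 group of 2 libraries of total RNA, called replicates 1 and 2, and no treatment or mutant allele was named. Each was labelled as a single forebrain of a B6NCrl embryo, a substrain of C57BL/6, and the library input was 10 ng of RNA longer than 200 nt. Both carried the same donor entry, were collected on different days, and had the sex entry of a pool of males and females, which goes against a single forebrain. It is therefore not known how far the libraries stand for separate embryos, and collection day cannot be told apart from replicate. With 1 group there was no test between conditions, and every difference below is between 2 libraries.

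Depth was 35310017 expected counts in replicate 1 and 29250404 in replicate 2, of which spike-in RNA took 1.87% and 2.19%. The counts of the 2 libraries differed beyond sampling noise (chi-square per degree of freedom 28.2 over 18196 genes), so they were kept as separate libraries. The labelled tissue was checked against markers: all 4 markers of the telencephalon and all 8 of neurons reached 1 TPM in both libraries, whereas 0 of 4 muscle markers and 0 of 3 T cell markers did, with Cd3e and Cd8a at 0 counts. The libraries differed in markers of cell type. The summed level of the 8 neuron markers was 3492 TPM in replicate 1 and 4342 in replicate 2, and that of the 8 progenitor markers was 1117 and 977. In a whole forebrain, fewer cells of a type and less RNA per cell cannot be told apart, and no value here places a transcript in a cortical layer.

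Levels were read in TPM, the share of all transcripts scaled to a fixed sum, which corrects for transcript length. Each TPM was deposited with an interval whose level the files do not state. The 9 genes had a median of 24.1 TPM, beside 4.25 TPM over 21461 nuclear protein-coding genes, expressed or not. All 9 had a mean of at least 5 TPM, and the median over the 11010 genes that did was 27.0 TPM. Lmo4 was the highest at 105 ± 6.49 TPM (SD, n = 2) and Unc5d the lowest at 5.01 ± 1.32. Counts per gene and library ran from 823 to 5315, far above a floor of 3 counts. In descending order of the mean the genes were Lmo4, Cux1, Mef2c, Mef2a, Satb1, Cux2, Mef2d, Rorb and Unc5d. Neighbours in this order lay apart by their intervals in both libraries for 5 of 8 pairs. Mef2a, Satb1, Cux2 and Mef2d formed a middle group in which no neighbours were apart in both libraries, and Cux2 lay under Mef2d in replicate 1 and above it in replicate 2. Rorb and Unc5d were apart in both libraries although their means differed by less than the larger SD.

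**Figure D1:**
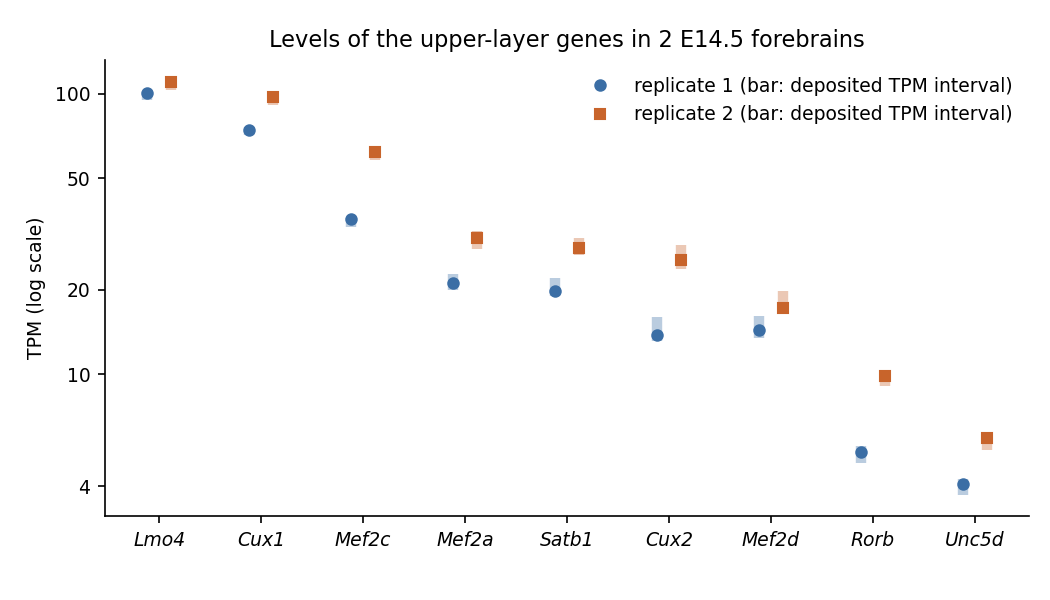
TPM of the 9 genes on a log axis, in order of the mean, with a circle for replicate 1, a square for replicate 2 and a bar for the deposited interval of each value. Lmo4 and Cux1 lie near 100 TPM, 4 genes from Mef2a to Mef2d form a middle group, and the squares lie above the circles for all 9.

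Cux1 and Cux2 are paralogues that serve as classical markers of layers II to IV, and Cux2 is known to shape dendrites and spines of these neurons. Cux1 (ENSMUSG00000029705, GRCm38 chr5:136248135-136567490, minus strand) had 74.2 TPM in replicate 1 and 97.4 TPM in replicate 2. Cux2 (ENSMUSG00000042589, chr5:121856366-122050102, minus strand) had 13.8 and 25.5 TPM. Cux1 was thus the higher gene in both libraries, by 5.36-fold and 3.81-fold, a mean log2 ratio of 2.18 ± 0.35 (SD, n = 2).

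The Cux1 locus also produces CASP, a coiled-coil protein of the Golgi membrane that shares the first exons with Cux1 and lacks the CUT repeats and the homeodomain. Its transcripts held most of the gene's level. Those whose coding sequence ended at the CASP end (Cux1-211, Cux1-207 and Cux1-205, at most 678 codons) summed to 67.7 TPM in replicate 1 and 81.6 TPM in replicate 2, which was 91.3% and 83.7% of the gene. The 5 transcripts that ended at the homeodomain end, with up to 1517 codons, summed to 5.59 and 7.72 TPM, 7.54% and 7.92% of the gene. By expected counts, which are not divided by length, the homeodomain end held 22.6% and 23.0%, since its transcripts are longer. Shares of transcripts are estimates that divide reads common to several models, so they carry more error than the sum over a gene.

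Within Cux2, Cux2-202 led with 84.0% and 71.3% of the gene's TPM, at 11.6 and 18.2 TPM. Set against it, the homeodomain-end transcripts of Cux1 were lower by 2.08-fold in replicate 1 and 2.36-fold in replicate 2, a mean log2 ratio of -1.15 ± 0.13 (SD, n = 2). The order of the paralogues by transcripts of the homeodomain end was therefore opposite to their order by gene level. A 189-nt coding exon found in all 5 homeodomain-end transcripts of Cux1 and in no transcript of the CASP end is shown beside its Cux2 counterpart, because it separates the products that the gene level adds up. The exons, at chr5:136282868-136283056 for Cux1 and chr5:121865852-121866040 for Cux2 (GRCm38, minus strand, read from GENCODE transcripts), were identical at 145 of 189 bases (76.7%), and capitals mark the bases that differ.
Cux1 189-nt exon: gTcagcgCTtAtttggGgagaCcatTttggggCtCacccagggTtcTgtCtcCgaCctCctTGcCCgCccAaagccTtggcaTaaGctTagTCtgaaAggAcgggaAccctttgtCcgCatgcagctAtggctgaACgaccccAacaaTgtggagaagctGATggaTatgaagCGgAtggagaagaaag
Cux2 189-nt exon: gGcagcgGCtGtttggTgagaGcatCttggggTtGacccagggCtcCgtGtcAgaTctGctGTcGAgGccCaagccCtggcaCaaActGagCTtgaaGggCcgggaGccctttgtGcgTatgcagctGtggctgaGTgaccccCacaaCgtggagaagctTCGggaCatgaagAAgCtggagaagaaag

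**Figure D2:**
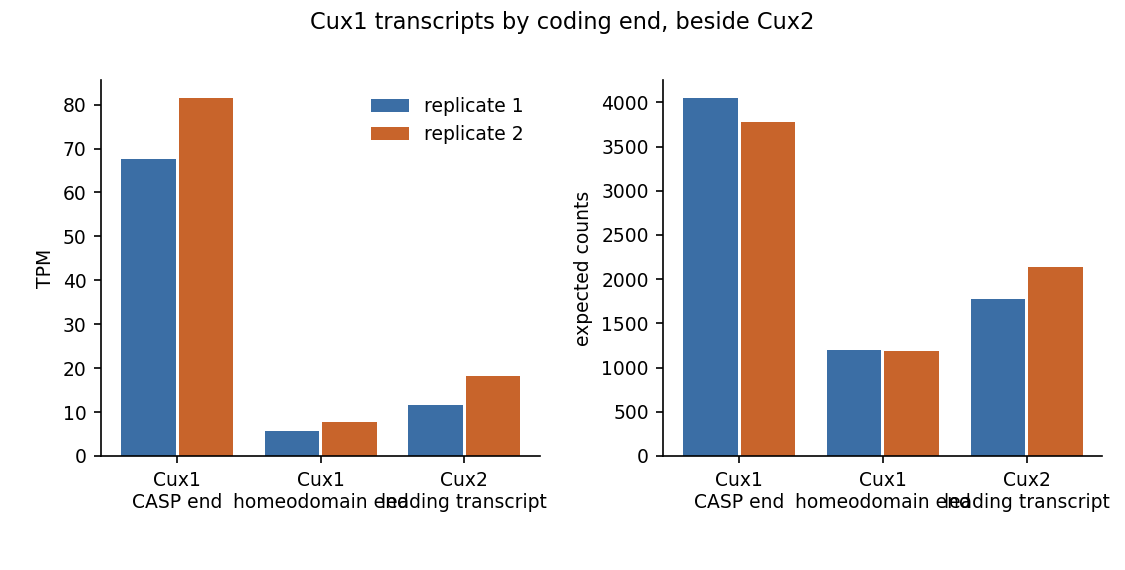
TPM (left) and expected counts (right) of Cux1 transcripts ending at the CASP end, Cux1 transcripts ending at the homeodomain end and Cux2-202, the leading transcript of Cux2, with 1 bar per library and axes from 0. The CASP end is the tallest at 67.7 and 81.6 TPM, and the homeodomain end of Cux1 stands under Cux2-202 in both libraries and both units.

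Satb1, a chromatin organiser that binds AT-rich DNA, is known in the brain for the maturation of cortical interneurons. Satb1 (ENSMUSG00000023927, chr17:51736187-51833290, minus strand) had 19.9 TPM in replicate 1 and 28.3 TPM in replicate 2. Satb1-204 held 42.1% and 46.6% of the gene and Satb1-208, which encodes a protein of the same 764 codons, held 34.4% and 24.8%. The third, Satb1-207, is the one with a 96-nt coding exon at chr17:51742047-51742142, and it encodes 795 codons. Satb1-207 made up 10.9% and 13.5% of the TPM of those coding transcripts whose coding sequence spans the exon, the denominator used for exon shares throughout. The exon is printed because it tells the 2 protein forms apart.
Satb1 96-nt exon: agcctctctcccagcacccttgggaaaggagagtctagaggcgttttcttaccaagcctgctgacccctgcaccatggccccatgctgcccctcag

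The Mef2 genes encode factors that bind DNA as dimers, are held inactive by class IIa histone deacetylases, and are released by calcium signals. In cortical neurons Mef2c is known for its roles in differentiation and synapse number. Mef2c (ENSMUSG00000005583, chr13:83504034-83667080, plus strand) was the highest of the family at 35.7 TPM in replicate 1 and 61.8 TPM in replicate 2. Mef2a (ENSMUSG00000030557, chr7:67231163-67372858, minus strand) had 21.1 and 30.5 TPM. Mef2d (ENSMUSG00000001419, chr3:88142372-88172086, plus strand) had 14.4 and 17.3 TPM. All 3 were apart from each other in the order Mef2c, Mef2a, Mef2d in both libraries, with mean log2 ratios to Mef2c of -0.89 ± 0.18 for Mef2a and -1.58 ± 0.37 for Mef2d (SD, n = 2). Mef2b, the paralogue known from lymphocytes, had 0.25 and 0.66 TPM from 7 and 14 counts.

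MEF2 genes carry a pair of mutually exclusive exons after the DNA-binding domain, called alpha1 and alpha2, of which alpha2 in Mef2d is known from skeletal muscle, and a short beta exon in the transactivation domain. The alternative exons are shown because they tell the protein forms apart. In Mef2a the first of the pair is the 132-nt exon at chr7:67268269-67268400 on the minus strand. In Mef2d the first has 138 nt at chr3:88158034-88158171 on the plus strand. These exons had 54.3% identical bases. Capitals mark the bases that each shares with its counterpart in the other gene.
Mef2a first exon: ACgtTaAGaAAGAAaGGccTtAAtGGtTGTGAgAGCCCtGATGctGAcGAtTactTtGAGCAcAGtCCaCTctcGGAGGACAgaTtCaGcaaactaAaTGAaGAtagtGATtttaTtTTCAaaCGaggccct
Mef2d first exon: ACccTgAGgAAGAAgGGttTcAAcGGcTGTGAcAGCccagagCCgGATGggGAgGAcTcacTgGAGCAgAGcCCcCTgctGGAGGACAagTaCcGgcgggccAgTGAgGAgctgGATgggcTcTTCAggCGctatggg

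The first exon of the pair led in both genes. In Mef2a it was in transcripts with 72.1% and 71.2% of the TPM of the coding transcripts that span it. In Mef2d the second exon occurs only in Mef2d-202, which had 0 counts in both libraries, so a floor of 3 counts in each library is all that can be set for it. The muscle markers of the forebrain, at 0.82 and 0.99 TPM in sum, were near 0 as well. The leading transcripts were Mef2a-208 with 71.8% and 64.2% of its gene, followed by Mef2a-201 with 11.5% and 17.8% and Mef2a-203 with 16.3% and 10.3%. In Mef2d they were Mef2d-201 with 56.1% and 51.1%, Mef2d-204 with 24.4% and 35.1%, and Mef2d-203 with 16.3% and 13.8%.

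The share of coding models with the beta exon differed between the MEF2 genes. Of the coding models with counts, only Mef2a-208, Mef2c-203 and Mef2d-203 hold this exon, and each also differs in length from the others of its gene. The shares are therefore those of whole models, and use of the exon alone was not tested. In Mef2a, Mef2a-208 also carries most of the share of the first exon of the pair. Among coding transcripts that span the beta exon, it was in 72.1% and 69.5% of the TPM of Mef2a. It was in 56.4% and 63.5% of that of Mef2c, and in 16.9% and 13.8% of that of Mef2d. In Mef2a this leaves out Mef2a-205 (1.68 TPM in replicate 2), a short model that holds the first exon of the pair and does not reach the beta exon. Mef2d therefore had the lowest beta exon share in both libraries, and its 2 values lay closer to each other than to those of either other gene, whereas the nearest values of Mef2a and Mef2c lay closer than the replicates of Mef2c did. By expected counts the shares were 85.0% and 83.5% for Mef2a, 40.9% and 48.2% for Mef2c and 6.77% and 5.67% for Mef2d, in the same order. Mef2c is the least certain, because the files quantified 3 models of it, none with the length of its namesake in the GENCODE release from which exons were read here, and that release lists 31. By those models Mef2c-203, which starts inside the gene at position 83573622 and holds the beta exon, led with 56.4% and 63.5%, and Mef2c-202, which starts upstream at 83504240, had 42.0% and 34.7%. The beta exons lie at chr7:67244521-67244544 (Mef2a, minus strand), chr13:83654598-83654621 (Mef2c, plus strand) and chr3:88161781-88161801 (Mef2d, plus strand). Capitals mark, in Mef2a and Mef2c, the bases that differ between these 2 (17 of 24 are identical) and, in Mef2d, those that differ from Mef2c.
Mef2a beta exon: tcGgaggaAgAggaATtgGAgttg
Mef2c beta exon: tcTgaggaTgTggaTCtgCTgttg
Mef2d beta exon: ActgaggaCCatTtAGATCtg

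**Figure D3:**
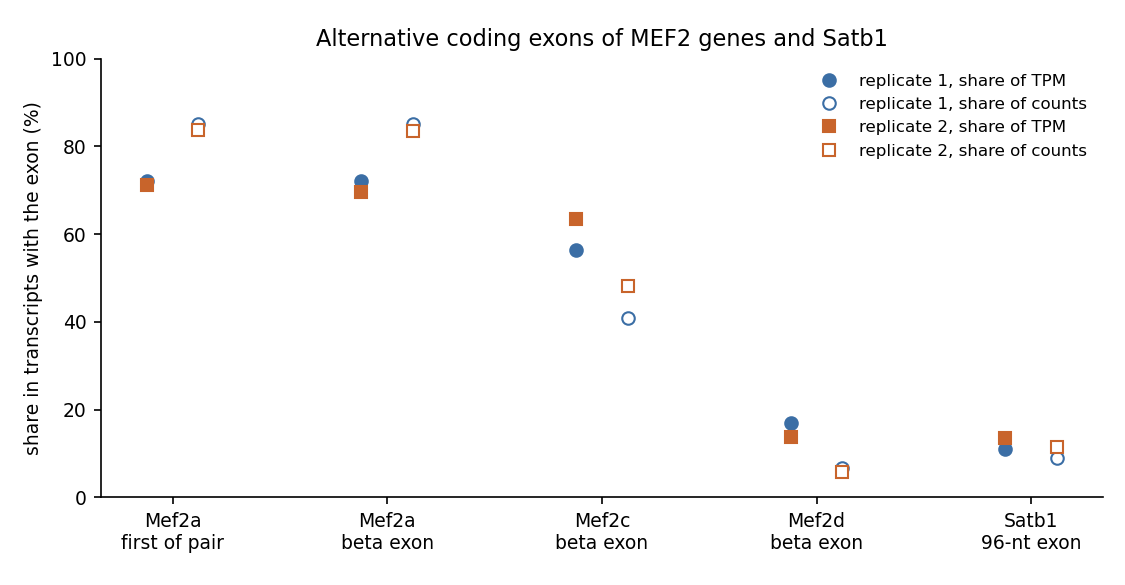
Share of a gene's coding transcripts spanning the site that hold an alternative exon, in percent, for Mef2a, Mef2c, Mef2d and Satb1, as filled symbols by TPM and open symbols by expected counts, with circles for replicate 1 and squares for replicate 2. The Mef2d beta exon lies under the beta exons of Mef2a and Mef2c on either weighting, between 5.67% and 16.9%.

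Rorb is known for layer IV identity and the clustering of thalamic input in sensory cortex. Rorb (ENSMUSG00000036192, chr19:18930605-19111196, minus strand) had 5.29 TPM in replicate 1 and 9.89 TPM in replicate 2. Its paralogue Rora, abundant in thalamus and cerebellum, had 12.5 and 14.3 TPM. Rorb lay under Rora in both libraries, with a mean log2 ratio of -0.89 ± 0.50 (SD, n = 2). That order holds per length only, since Rorb transcripts are long and Rorb had the larger count by a mean log2 ratio of 0.41.

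The 2 main Rorb transcripts start at different sites and differ in their first coding exon. Rorb-203, which starts upstream at 19111196 and encodes 459 codons, had 58.9% and 66.9% of the gene, at 3.11 and 6.61 TPM. Rorb-201, which starts at 19001117 inside the gene and encodes 470 codons, had 30.8% and 25.4%, at 1.63 and 2.51 TPM. The longer protein form is known in the rat from retina and pineal gland, and here it had the lower value in both libraries, although the deposited intervals overlapped in replicate 1 (2.13 to 3.94 TPM for Rorb-203 and 0.658 to 2.55 TPM for Rorb-201). Its first coding exon, at chr19:19001007-19001046, is printed with the start codon in capitals.
Rorb-201 first coding exon: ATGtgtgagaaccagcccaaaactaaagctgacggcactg
The 250 bases before each start (RefSeq, GRCm38.p6, minus strand) are printed because the 2 starts differ in base composition. The upstream window, chr19:19111197-19111446, had 66% G + C and 18 CpG, and the internal window, chr19:19001118-19001367, had 39.2% and 4, beside medians of 52.4% and 6 over 32817 promoter windows of the same length. Capitals mark CCAAT and GGGCGG on either strand, motifs found in 33.8% and 32.7% of all these windows and not overlapping each other here. The upstream window held 1 CCAAT and 2 GGGCGG, and the internal window neither.
Rorb upstream start: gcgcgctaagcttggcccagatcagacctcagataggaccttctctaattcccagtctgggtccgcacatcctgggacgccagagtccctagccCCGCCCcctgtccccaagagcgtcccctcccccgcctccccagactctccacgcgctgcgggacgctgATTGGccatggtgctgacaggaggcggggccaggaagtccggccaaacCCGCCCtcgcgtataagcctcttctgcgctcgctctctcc
Rorb internal start: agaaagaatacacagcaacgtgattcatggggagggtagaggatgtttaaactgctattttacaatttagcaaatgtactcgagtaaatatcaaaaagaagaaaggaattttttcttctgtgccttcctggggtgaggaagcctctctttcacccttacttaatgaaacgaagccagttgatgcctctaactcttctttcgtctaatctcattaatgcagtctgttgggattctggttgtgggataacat

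Promoter windows were at hand for 8 of the genes, 18 windows in all, and Unc5d had none in the table. GGGCGG occurred in 7 of 18, CCAAT in 4, TATAAA in 3 (12.4% of all windows), AGGTCA, a nuclear receptor core sequence, in 3 (14.0% of all), and the MEF2 site in 0 (2.92% of all), each searched on both strands. The median over the 18 windows was 59.8% G + C and 15 CpG. Windows of a gene overlap where starts lie close, so they are not independent.

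Lmo4 bridges LIM-domain binding proteins and other factors, and in cortex it is known for callosal and sensory area identity. Lmo4 (ENSMUSG00000028266, chr3:144188530-144205220, minus strand) was the shortest of the 9 genes with a span of 16.7 kb, and it had 100 TPM in replicate 1 and 109 TPM in replicate 2. Lmo3 had 115 and 130 TPM, Lmo1 53.5 and 55.0, and Lmo2 25.0 and 25.6, so 3 of the 4 LMO genes exceeded 50 TPM. Lmo4 lay under Lmo3 in both libraries by a small margin, a mean log2 ratio of -0.22 ± 0.04 (SD, n = 2), which was -0.02 when only protein-coding transcripts were summed. Lmo4-201 held 51.3% and 56.1% of the gene and Lmo4-203 held 45.4% and 40.4%. Both encode the same 165 codons, and they start at separate first exons, at 144205220 and 144202396.

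Unc5d is a receptor that mediates repulsion by FLRT proteins and is known from multipolar cells of the subventricular zone on their way to the upper layers. Unc5d (ENSMUSG00000063626, chr8:28646717-29219636, minus strand) spans 573 kb, the longest of the 9, and had 4.08 TPM in replicate 1 and 5.94 TPM in replicate 2, all in 1 transcript model, Unc5d-201. Svet1, an intronic RNA of this locus and a marker of the subventricular zone, was not analysed here. Unc5c had 3.50 and 3.78 TPM, and the intervals of Unc5d and Unc5c were not apart in both libraries. Unc5a was higher at 10.1 and 13.7 TPM, and Unc5b lower at 1.75 and 1.95 TPM.

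**Figure D4:**
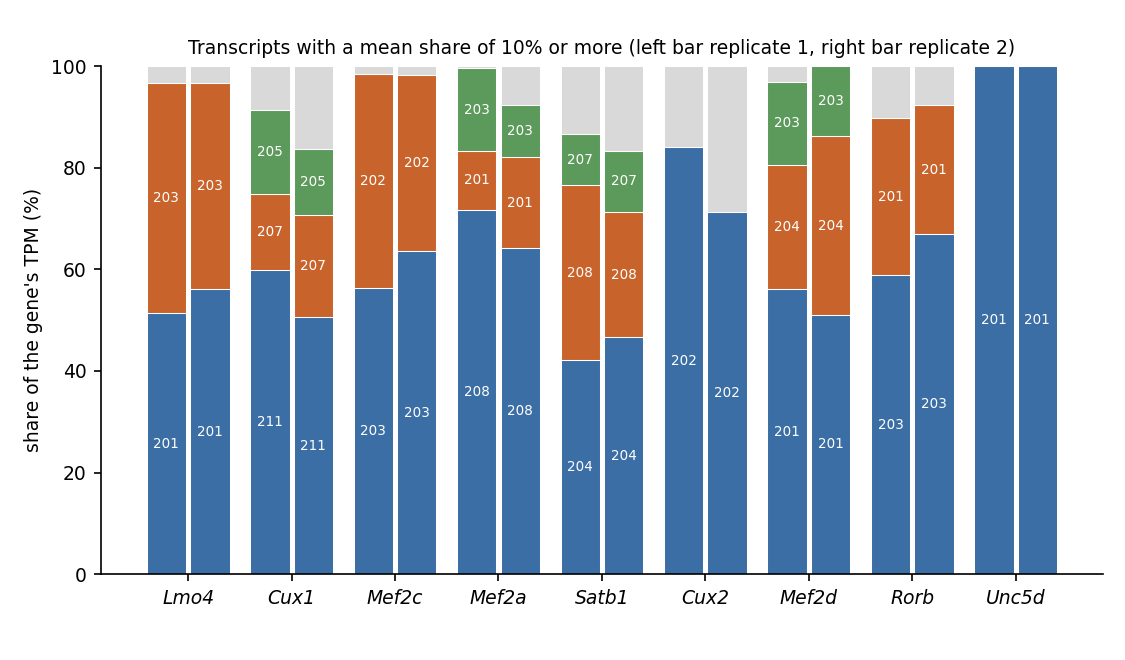
Share of each gene's TPM held by transcripts with a mean share of 10% or more, in percent, as stacked bars with replicate 1 on the left and replicate 2 on the right of each pair, numbered by the suffix of the transcript name, and grey for the rest. The same transcript led in both libraries for all 9 genes, and the grey part of Cux2 is larger in replicate 2.

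Across the set, replicate 2 had the higher TPM for all 9 genes and their deposited intervals were apart for all 9, while under TMM scaling of counts Lmo4 turned to a log2 ratio of -0.02. Over the 11010 genes tested, those whose mean reached 5 TPM, 72.4% were higher in replicate 2 by TPM (45% by TMM-scaled counts), and 37.4% were higher with intervals apart. The ratio of TPM was 1.87 for Rorb, 1.85 for Cux2, 1.73 for Mef2c, 1.46 for Unc5d, 1.45 for Mef2a, 1.43 for Satb1, 1.31 for Cux1, 1.20 for Mef2d and 1.09 for Lmo4. None of the 9 reached 2-fold, which 0.663% of all tested genes did in either direction and 0.318% did upwards in replicate 2. Rorb, Cux2 and Mef2c reached 1.5-fold in log2(TPM + 1), as did 3.95% of all tested genes in that direction. Under TMM scaling Rorb alone of the 9 stayed past 1.5-fold, with log2 ratios of 0.75 for Rorb, 0.55 for Mef2c and 0.49 for Cux2. The median log2 ratio of TPM + 1 was 0.49 over the 9 and 0.14 over all tested genes, and 8 of the 9 lay above the latter, Lmo4 being the exception at 0.13. TMM scaling moved the median of all tested genes to -0.03 and that of the 9 genes to 0.25, and all 9 then lay above the median of all. For Cux2 part of the ratio came from short models: Cux2-206 (named after its values were seen), with 12.6 and 29.8 counts, had 7.14% and 11.9% of the gene's TPM, and the ratio of Cux2-202 alone was 1.57.

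Markers moved between the libraries too. All 8 neuron markers were higher in replicate 2 by TPM (7 by TMM-scaled counts), with a summed ratio of 1.24. Of 8 progenitor markers 7 were lower by TPM (all 8 by TMM-scaled counts), with a summed ratio of 0.875. All 4 markers of intermediate progenitors were lower on both scales, from 362 to 331 TPM in sum. Of the 8 interneuron and ventral forebrain markers at a mean of at least 5 TPM, 7 were higher by TPM (4 by TMM-scaled counts), from 443 to 529 TPM over the whole list, and Lhx6, Erbb4 and Gad1 reached 1.5-fold (named after their values were seen). Red blood cell markers went from 7475 to 9601 TPM. The part of these markers in the differences of the 9 genes was not tested.

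**Figure D5:**
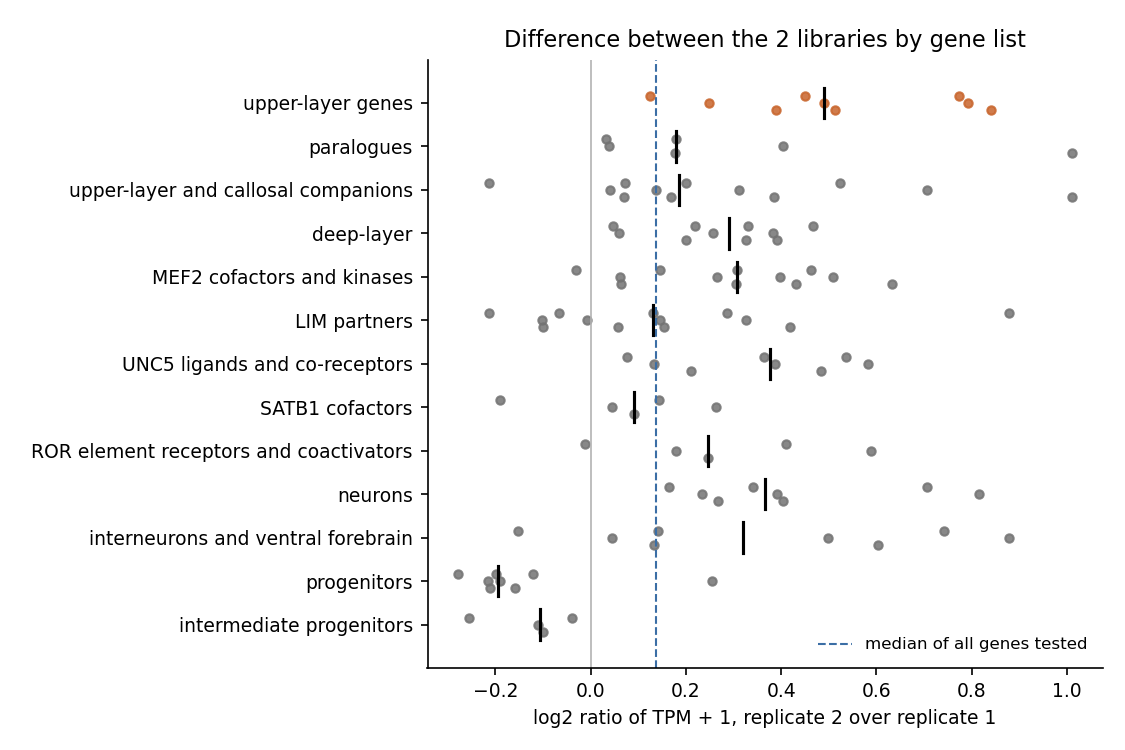
Log2 ratio of TPM + 1, replicate 2 over replicate 1, for the genes of each list whose mean reached 5 TPM (points), with the median of the list (black bar) and of all genes tested (dashed line). The 9 upper-layer genes have a median of 0.49, neuron markers lie to the right of 0 and 7 of 8 progenitor markers to the left. On TMM-scaled counts Lmo4 moves to -0.02 and 1 of 8 neuron markers turns lower.

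Genes that work with the 9 were read from fixed lists. Over all 43346 Ensembl genes, 14559 reached 1 TPM in replicate 1 and 14894 in replicate 2. Of 88 distinct listed genes, 83 reached 1 TPM in both libraries. Of 14 companions in upper-layer or callosal neurons, 13 did so, and 11 of the 12 with a mean TPM of 5 or more were higher in replicate 2 by TPM (8 of 12 by TMM-scaled counts), beside 72.4% (45%) of all tested genes. The list median log2 ratio was 0.19, near the 0.14 of all tested genes. Ptn, a secreted growth factor, had 206 and 237 TPM. Limch1 had 34.6 and 50.1 TPM. Lhx2, a LIM homeodomain factor of cortical progenitors, was the exception with 84.5 and 72.7 TPM. Past 1.5-fold were 2 companions, among them Pou3f2 at 1.67-fold (named after its values were seen). All 10 deep-layer genes were higher in replicate 2 by TPM, and 8 by TMM-scaled counts, where Tbr1 and Tle4 were lower. Their median log2 ratio was 0.29 and none was past 1.5-fold. The highest of them were Sox5 with 83.3 and 110 TPM, Bcl11b with 62.3 and 72.7 TPM and Fezf2, which specifies subcerebral neurons, with 54.1 and 64.8 TPM.

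All 13 genes listed as MEF2 cofactors and kinases reached 1 TPM in both libraries. The catalytic subunits of calcineurin, Ppp3ca and Ppp3cb, had 69.0 and 93.4 TPM and 69.3 and 76.8 TPM. Cdk5, a neuronal kinase that phosphorylates MEF2, had 65.0 and 63.6 TPM. Among the 12 with a mean TPM of 5 or more, 11 were higher in replicate 2 by TPM (10 by TMM-scaled counts), beside 72.4% (45%) of all tested genes. Their median log2 ratio by TPM was 0.31, beside 0.14 over all tested genes. Hdac5 was past 1.5-fold by TPM (named after its values were seen), and no gene of this list was by TMM-scaled counts. Of 7 activity genes linked to MEF2, 4 had a mean TPM of 5 or more, among them Jun with 29.9 and 31.0 TPM, Klf6 with 23.5 and 31.6 TPM and Homer1 with 13.1 and 15.3 TPM.

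The 14 genes listed as LIM partners, LIM homeodomain factors among them, had a median level of 57.5 TPM. The 13 with a mean TPM of 5 or more had a median log2 ratio of 0.13. Of these, 8 of 13 were higher in replicate 2 by TPM and 4 of 13 by TMM-scaled counts. Over all tested genes these shares were 72.4% and 45%, and the median by TPM was 0.14. They are the base for each list of this paragraph. Ssbp2 had 187 and 228 TPM, Ssbp3 97.8 and 108 TPM, and the adaptor Ldb1, which LMO proteins bind, 91.6 and 102 TPM. Among 12 ligands and co-receptors of UNC5 proteins, 10 reached 1 TPM in both libraries and all 8 with a mean TPM of 5 or more were higher in replicate 2 by TPM (6 by TMM-scaled counts), with a median of 0.38 (Ntn3 was not analysed here). Flrt3 had 51.8 and 54.7 TPM, Adgrl2 39.9 and 56.2 TPM, and Adgrl1 37.2 and 43.2 TPM. SATB1 cofactors had the lowest median of these lists, 0.09, with Ctbp1 at 344 and 367 TPM, Hdac1 at 128 and 112 TPM and Mta2 at 47.4 and 48.9 TPM. Of the 5 SATB1 cofactors with a mean TPM of 5 or more, 4 were higher in replicate 2 by TPM and 1 by TMM-scaled counts. For receptors and coactivators at ROR elements the median was 0.25, with 4 of 5 higher in replicate 2 by TPM (3 by TMM-scaled counts), and the coactivators Ncoa2 and Ncoa1 had 12.7 and 19.6 TPM and 9.44 and 11.4 TPM.

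Overlapping genes limit a few of these values, since the sources used here do not say whether counting used the strand. The antisense gene 1700113A16Rik overlaps the 3′ end of Mef2d and had 11.4 and 9.22 TPM, beside 14.4 and 17.3 TPM for Mef2d. Lysmd4, a protein-coding gene on the opposite strand of Mef2a, had 17.1 and 19.3 TPM. The other overlapping models that were quantified had at most 1.68 TPM.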

How the data were processed

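Total RNA of 2 E14.5 forebrain libraries was analysed from the deposited gene and transcript tables. Per the file headers these hold expected counts (estimated, not always whole), TPM, FPKM, each transcript's percent of its gene, posterior means and, as a score, lower and upper bounds of TPM; per the files' notes the authors used assembly mm10 (GRCm38) with GENCODE release M4. The aligner and quantification program are not given in the sources used here. Names and exons came from GENCODE M21 on GRCm38 by ID without version, which named 42462 of 43346 Ensembl IDs. Of 68 transcripts quantified for the 9 genes, 60 had the same length in both releases. The other 8 were the 3 models of Mef2c, Cux2-202, Cux2-209, Lmo4-203, Mef2a-207 and Unc5d-201. Promoters came from RefSeq on GRCm38.p6.

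The 9 genes and all lists were chosen with earlier results of these data known. Of each list, the 3 genes with the highest mean TPM, genes under 3 counts in both libraries, paralogues and transcripts with a mean share of 10% or more are named, and other names were chosen after their values were seen. Myog, with 0 and 1 counts, falls under this rule. Differences between libraries are log2 ratios of TPM + 1 where the mean reached 5 TPM. Neighbours and paralogues were called apart when the deposited bounds did not overlap, in the same direction in both libraries. These bounds are centred on the posterior mean and a TPM can lie outside them, as for Mef2c in replicate 2. Means and SDs are over 2 libraries. A few list members and 1 exon sequence are left out of the text, while list counts and medians cover every member analysed. No p-value was computed. Alternatives used edgeR 4.0.16 (TMM) and DESeq2 1.42.0 (size factors) on expected counts rounded to whole numbers, as scalings only. Python 3.11.15, pandas 2.3.3 and R 4.3.3 were used.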

Additional observations from a re-analysis of the deposited data

How the results depend on the processing

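No paired analysis was possible because the series has 1 group. Over the alternatives to the values of single genes, transcripts and pairs, 163 stayed within the limit set, 18 moved past it and 3 reversed. That limit was the SD over the 2 libraries, or a fixed cut-off for ratios between libraries. Values with 1 library left out always lie within this SD, and the minimum TPM and the fold do not enter a gene's ratio. Alternatives of these kinds could not move past the limit, so part of the 163 was fixed in advance. Lmo4's log2 ratio between libraries reversed to -0.020 under TMM and to -0.0199 under DESeq2 size factors, and the log2 ratio of Rorb over Rora reversed to 0.41 with counts not divided by length. The number of genes 2-fold apart was 73, and 23 with TMM, 338 with no minimum TPM, 223 with a minimum of 1, 538 at 1.5-fold, 37 with intervals apart as well, and 27 with protein-coding transcripts only. The number of the 9 genes past the fold went from 0 to 3 at 1.5-fold and stayed at 0 under the other alternatives. By expected counts in place of TPM, the Cux1 share of the CASP end moved from 87.5% to 74.6%, and the beta exon share from 70.8% to 84.2% for Mef2a, from 59.9% to 44.5% for Mef2c and from 15.4% to 6.22% for Mef2d. The log2 ratio of homeodomain-end Cux1 over Cux2-202, -1.15, was -0.70 by counts and -1.52 over the gene level of Cux2. The shares by counts, the ratio over the gene level of Cux2 and, for the ratio between libraries, protein-coding transcripts only, rescaling over protein-coding genes and the TMM counts of each list were chosen after seeing the data.

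With 1 library left out, neighbours in the order of levels were kept for 7 to 8 of 8 pairs, neighbours apart numbered 6 either way (5 with both), paralogue pairs apart 7 either way (6 with both), and partner genes at 1 TPM 84 either way (83 with both). The CASP-end share ran from 83.7% to 91.3%, beta exon shares from 69.5% to 72.1% (Mef2a), 56.4% to 63.5% (Mef2c) and 13.8% to 16.9% (Mef2d), and the Cux1 to Cux2-202 ratio from -1.24 to -1.05. The cause of these shifts was not tested. Depth limits Mef2b, at 7 and 14 counts, and the Mef2d second exon, at 0.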

Other observations

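The annotation lists 5 unspliced models on the sense strand inside Satb1 (E430014B02Rik, C230085N15Rik, Gm36931, 5830444F18Rik and Gm37248), chosen after their values were seen. They had 0.07 to 0.74 TPM in replicate 1 and 0.27 to 1.68 TPM in replicate 2, and each was higher in replicate 2, with 0.25 and 1.38 TPM for 5830444F18Rik. Sense-strand models of the same annotated type inside Cux1 were higher too, A430110C17Rik with 0.14 and 0.24 TPM and Gm38082 with 0.10 and 0.40. Of all genes with a mean of at least 1 TPM, 71.7% were higher in replicate 2. With no minimum the share was 36.9%, where genes at 0 TPM in both libraries count as not higher. Whether the reads of the models inside Satb1 come from unspliced Satb1 RNA was not tested.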
